A study of Homo sapiens with 6 samples.

Results

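The histone genes were followed in MCF12A cells, a human mammary epithelial line, in a table of 24294 loci, of which 83 carried a histone symbol. Membership was decided by the symbol alone: a locus was included if any of its symbols began with HIST1H, HIST2H, HIST3H, HIST4H, H1F, H2AF or H3F, and no measured value was used. The 83 loci comprised 68 of the HIST clusters, called replication-dependent here, and 15 with variant symbols. Of these, 31 had a mean of at least 1 FPKM (fragments scaled by transcript length and of sequencing depth) over the 6 libraries and entered the test. One of the 31, H1FX-AS1, is an antisense RNA that was picked up by its symbol and encodes no histone, and HIST2H4A was listed at 2 positions with identical values, so that 30 loci had values of their own. HIST2H2BC, also tested, has no annotated coding part, and neither have HIST2H2BA and HIST1H2APS1, both below 1 FPKM. They are counted with the H2B and H2A genes by symbol.

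Both groups were MCF12A cells carrying a stable construct, an empty vector (EV) in 3 libraries and miR-424 in the other 3, with growth for 48 hours and libraries of mRNA. The labels describe MCF12A as a breast cancer line, whereas it is otherwise known as an immortalised, non-tumorigenic mammary epithelial line. The labels speak of growth in triplicate and give neither the number of stable clones nor the vector's promoter, so p-values measure the spread between these libraries, which may be technical.

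Histones package DNA into nucleosomes. The core histones H2A, H2B, H3 and H4 form the particle, and the linker histones of the H1 family bind where DNA enters and leaves it. Replication-dependent histone genes are transcribed mainly in S phase, and their mRNAs usually end in a conserved stem-loop, bound by SLBP, in place of a poly(A) tail. Variant histones such as H2A.Z and H3.3 are made through the cell cycle from polyadenylated mRNAs, and some cluster genes can also give a polyadenylated form, as in cells that have stopped dividing. FPKM in an mRNA library therefore reflects the form that the library captured, and a lower replication-dependent value is not a measure of the total histone mRNA.

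The over-expressed miRNA is shown first because its seed gives the sequence searched for in the histone transcripts. The mature sequence from RefSeq (GRCh38.p14, chrX:134546680-134546701, minus strand) is given 5′ to 3′ with the seed, bases 2 to 8, in capitals.
hsa-miR-424-5p: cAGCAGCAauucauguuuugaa
The stretches below are from GENCODE 29 transcripts, with the 7-base complement of the seed in capitals. They show the coding matches of the 2 fallen genes that held one and of an H2B gene that did not pass the test.
H2AFX: atccaggccgTGCTGCTgcccaagaag
HIST1H1C: ctgccaaaagTGCTGCTaaggctgtga
HIST1H2BK: gccgtgcgccTGCTGCTgcccggggag
The TGCTGCT match was found in the longest transcript of 18 of 20 H2B genes, 9 of 21 H2A genes, 3 of 10 H1 genes, 1 of 13 H3 genes and 0 of 14 H4 genes. It lay in the coding part in 16 of the H2B genes, within a stretch that differed by few bases between them, and in the 3′ UTR in 3. Over all tested loci with a transcript, 49.6% held the match somewhere and 23.5% of those with an annotated 3′ end held it in the 3′ UTR. H1F0 and H1FX held none, H2AFX held none in its 3′ UTR, and the HIST1H1C transcript has no annotated 3′ UTR. A match is a description of letters and not a measured site.

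The stem-loop was searched after the stop codon on the transcript strand as GG, any 2 bases, CTT, any base, T, any base, AG, any 2 bases and CC. The stretches are shown because the stem-loop is the usual 3′ end of replication-dependent histone mRNAs, and it is given in capitals. It does not fully separate the 2 classes, which were set by symbol: H2AFX is a variant gene.
H2AFX: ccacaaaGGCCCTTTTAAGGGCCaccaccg
HIST1H2AC: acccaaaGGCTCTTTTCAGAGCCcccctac
HIST2H2BE: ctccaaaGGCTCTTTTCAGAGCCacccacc
HIST1H4H: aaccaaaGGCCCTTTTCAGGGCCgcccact
Among the tested replication-dependent genes, 13 of 20 had at least 40 nt annotated after the stop codon; all 13 held the stem-loop and 7 of the 13 also had a poly(A) signal (AATAAA or ATTAAA) in the last 50 nt. In genes of that class below 1 FPKM, 17 of 47 had such a 3′ part, 14 held the stem-loop and 5 had both features. H2AFX, which encodes the variant H2A.X, was the only tested variant gene with the stem-loop, followed by 1044 nt that end with a poly(A) signal. In HIST1H2AC the annotated transcript runs 1114 nt past the stem-loop, while the locus in the table spans 546 bases and the transcript 1654 nt, so fragments from the longer end would lie outside the counted locus. Other tested genes also had transcripts longer than their locus, among them HIST1H2AG (498 bases, 2250 nt), HIST1H3H (473 bases, 1237 nt) and HIST3H2A (496 bases, 895 nt). H1F0, H1FX, H2AFZ, H3F3B and H2AFV held no stem-loop.

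Before the histones, the labels and libraries were checked. The locus that hosts MIR424 (MGC16121,MIR424) read 0.989, 1.27 and 1.23 FPKM in EV and 107, 106 and 224 in miR-424, with no overlap. Library miR-424 replicate 3 stood apart: its median absolute log2 difference from the other miR-424 libraries was 0.142 and 0.152, against 0.0408 between those, and from 0.0357 to 0.0417 among the EV libraries. Keratin genes KRT5, KRT8 and KRT18 were abundant, whereas the epithelial markers CDH1 and TP63 were near 0, and of 6 fibroblast markers COL1A1 and DCN were above 1 FPKM. KRT5 fell, KRT14 and COL1A1 rose, and the part of these in the histone values was not tested. The summed leukocyte markers ranged from 0.316 to 0.679 FPKM and the endothelial markers from 0.224 to 0.322. Read totals are not given in the files. The steps between low values placed the libraries at approximately 0.768 to 1.22 times EV replicate 1, but the most frequent step held only a few percent of low loci.

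Variant loci carried most of the histone FPKM. They made up between 79.9% and 81.9% of the summed histone FPKM of a library, and 10 of the 15 were tested, against 21 of 68 replication-dependent loci. H2AFZ alone held from 25.7% to 27.8% of the sum. No locus carried the symbol H3F3A, another H3.3 gene, so the histone sums and shares leave that gene out. The tested replication-dependent loci were 1 of 6 H1, 5 of 14 H2A, 10 of 21 H2B, 2 of 11 H3 and 3 of 15 H4. Levels per length thus differed widely within 1 family, as in H2B, where HIST1H2BK reached a mean of 72.6 FPKM while 11 of 21 loci stayed below 1. A total of 7 loci read 0 in every library and 13 more in some libraries, all 13 replication-dependent.

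**Figure D1:**
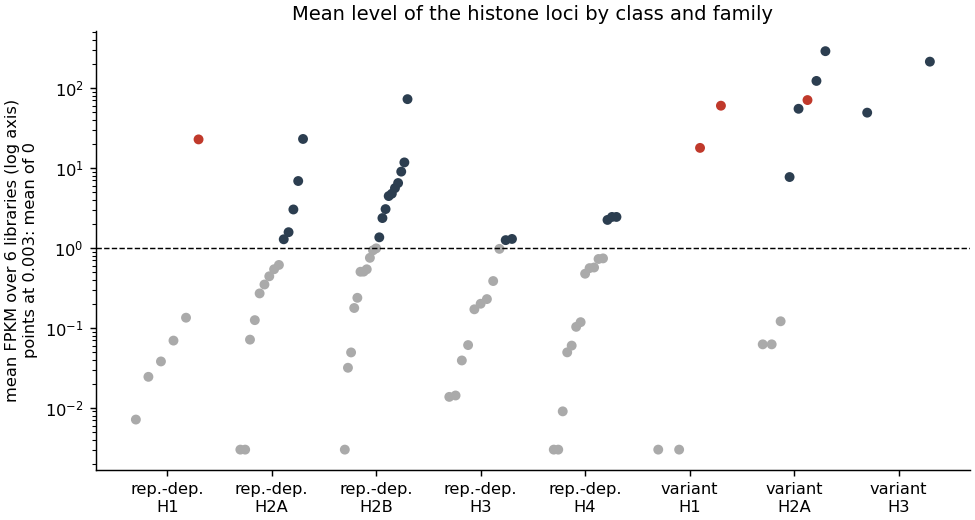
Each point is 1 histone locus, placed by class and family (horizontal) and by its mean FPKM over the 6 libraries (vertical, log axis); red points fell in miR-424, dark points were tested and not called, grey points lie below the dashed line at 1 FPKM, and loci with a mean of 0 are drawn at the bottom. The antisense locus and a locus merging an H3 and an H2A gene are not drawn; 3 of the 10 H1 loci lie above the line and all 3 are red.

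The threshold of 1 FPKM fell in a dense range. Just above it were HIST1H3H with a mean of 1.25 FPKM, HIST1H2AK with 1.28 and HIST1H3E with 1.29. Just below it, HIST1H2BG read from 0.662 to 1.45 FPKM, HIST1H3G from 0.710 to 1.29 and HIST1H2BH from 0.657 to 1.23. The libraries of the 3 loci below the threshold lie on both sides of 1, as do those of HIST1H3H and HIST1H3E. All 6 libraries of HIST1H2AK are above it. However, all 50-base words of its transcript also occur in HIST1H2BN transcripts, searched on either strand, so its level is uncertain.

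The comparison of miR-424 with EV asked which mRNAs differ once miR-424 is over-expressed. Of the 31 tested histone loci 5 fell and 0 rose (limma on log2(FPKM + 1), Benjamini-Hochberg adjustment over all 11574 tested loci, threshold 0.05, two-sided). The 5 were all 3 tested linker histone genes, H2AFX and the antisense locus H1FX-AS1. Over all tested loci 6.32% fell and 1.24% rose. The fallen share of the 31 histone loci was 16.1%, with H1FX-AS1 and both HIST2H4A entries counted. At an unadjusted p under 0.05 in limma, 7 of the 31 loci were lower and 3 higher, beside 19.3% and 4.29% of all tested loci. The median log2 change was -0.04 for the 31 loci and -0.05 for all tested loci.

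HIST1H1C encodes the linker histone H1.2, a replication-dependent H1, on chr6:26055967-26056699 (hg19). It read 28.3, 26.6 and 25.9 FPKM in EV and 20.9, 19.0 and 15.96 in miR-424. Every miR-424 library lay below every EV library, with replicate 3 lowest. The group means were 26.9 ± 1.22 and 18.6 ± 2.48 FPKM (SD, n = 3 each), and the log2 change was -0.52 (SE 0.0934, limma with Benjamini-Hochberg adjusted p = 0.0237). Its other H1 cluster relatives were all below 1 FPKM.

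H1F0 encodes H1.0, a linker histone known to accumulate in cells that have left the cycle or differentiated, on chr22:38201113-38203443. It read 20.8, 20.3 and 21.0 FPKM in EV and 16.1, 15.6 and 13.1 in miR-424. The EV libraries were close together and all above the miR-424 libraries. The log2 change was -0.45 (SE 0.0762, adjusted p = 0.0198 by limma with Benjamini-Hochberg).

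H1FX encodes H1.10, a variant linker histone. It read 68.8, 67.0 and 65.4 FPKM in EV and 56.0, 51.5 and 51.8 in miR-424. The groups did not overlap, and the log2 change was -0.33 (SE 0.0461, limma with Benjamini-Hochberg adjusted p = 0.0107). H1FX-AS1 shares its coordinates in the table (chr3:129033613-129043412) and read 2.13, 2.33 and 2.33 FPKM in EV and 1.47, 1.67 and 1.79 in miR-424. These values did not overlap either, with a log2 change of -0.31 (SE 0.0604, adjusted p = 0.0310 by limma with Benjamini-Hochberg). The use of strand during counting is not stated in any source read here. Of the 50-base words of the H1FX transcript, 17.2% also occur in H1FX-AS1 transcripts. Words were searched on either strand, here and for all shared words, so an overlap on opposite strands is counted. The 2 loci thus cannot be told apart with certainty.

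H2AFX encodes H2A.X, whose phosphorylated form marks DNA double-strand breaks, on chr11:118964584-118966177. It read 80.1, 80.5 and 77.2 FPKM in EV and 61.1, 64.9 and 60.1 in miR-424. The 2 groups lay well apart, with a log2 change of -0.35 (SE 0.0430, limma with Benjamini-Hochberg adjusted p = 0.0078). Only 0.3% of its 50-base words occur in another gene.

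**Figure D2:**
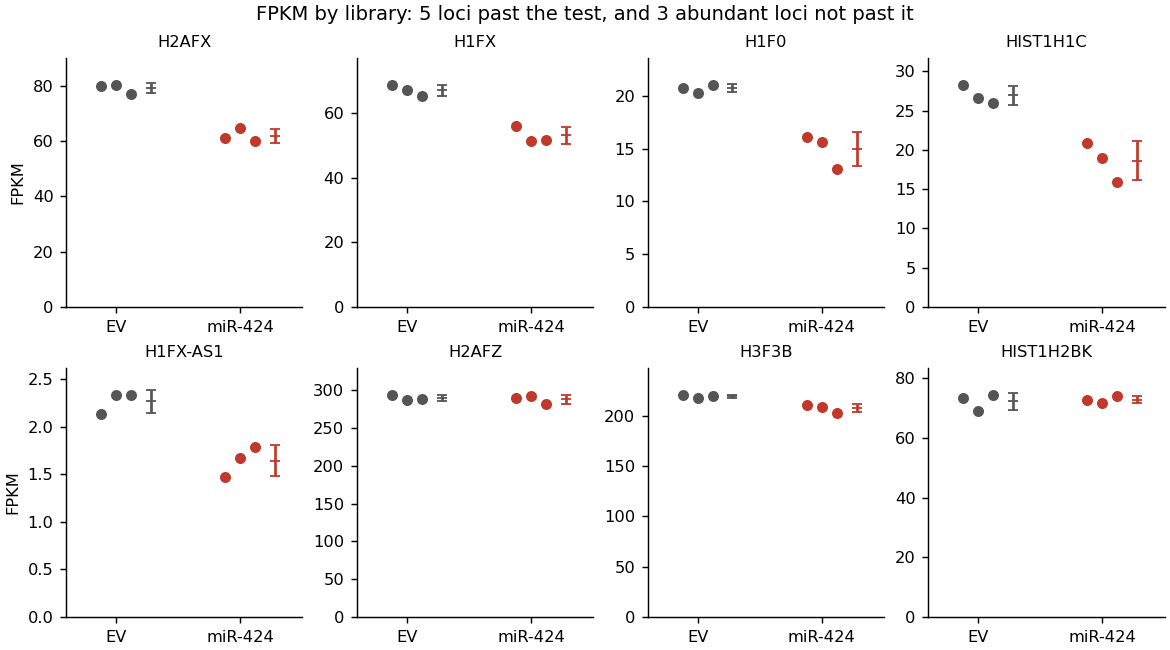
FPKM (vertical, from 0) of 8 histone loci in each EV and miR-424 library; points are libraries, and the dash with bars beside them is the mean and SD of 3. In the 5 loci that passed the test every miR-424 point lies below every EV point, whereas the H2AFZ and HIST1H2BK points of the groups intermix.

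Summed over the 10 linker loci, EV read 118, 114 and 113 FPKM and miR-424 read 93.3, 86.3 and 81.0, a ratio of means of 0.755. Nearly all of this sum came from H1FX, HIST1H1C and H1F0, the 3 tested linker loci, so it restates their values. The other linker loci had means of at most 0.134 FPKM (HIST1H1E). The 72 core histone loci summed to 1023, 1000.1 and 1007 FPKM in EV and to 970, 963 and 966 in miR-424, a ratio of 0.957. Neither sum overlapped between the groups. The FPKM sum of all 24294 loci also did not overlap, at 419938 to 424564 in EV and 409776 to 416076 in miR-424. The sums were not rescaled, and scaling factors by median of ratios were 1.021 to 1.028 in EV and 0.9252 to 1.003 in miR-424. The difference between the 2 ratios was not tested. In bulk RNA, fewer cells of a kind and less RNA per cell cannot be told apart.

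**Figure D3:**
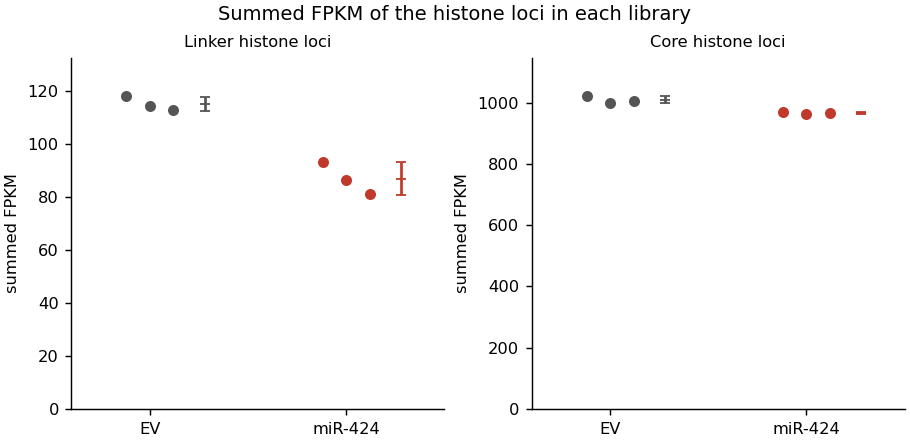
Summed FPKM (vertical, from 0) of the linker histone loci, left, and the core histone loci, right, in each library; points are libraries and the dash with bars is the mean and SD of 3. The linker sums run from 113 to 118 in EV and from 81.0 to 93.3 in miR-424, and the core sums from 1000.1 to 1023 and from 963 to 970. Nearly all of the linker sum is H1FX, HIST1H1C and H1F0.

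The most abundant variant genes did not pass the test. H2AFZ, which encodes H2A.Z, a variant of promoters and regulatory regions, read 294, 287 and 289 FPKM in EV and 290, 292 and 281 in miR-424, and the groups overlapped. Its log2 change was -0.01 (SE 0.0334, limma with Benjamini-Hochberg adjusted p = 0.904). H3F3B, one of the H3.3 genes, read 221, 218 and 220 against 211, 209 and 203. H2AFV, which encodes a second H2A.Z, read 127, 126 and 127 against 120, 119 and 116. Both were lower in each miR-424 library, with log2 changes of -0.08 (SE 0.0330, adjusted p = 0.212) and -0.10 (SE 0.0327, adjusted p = 0.131; limma with Benjamini-Hochberg). H2AFY, the gene of macroH2A1, and H2AFJ had values of -0.07 and -0.08. H3F3C read from 46.6 to 51.7 FPKM, but 21.8% of its 50-base words are shared with H3F3B, so its level is uncertain. The level of H2AFY carries the same limit, with 23.2% of its 50-base words shared with other genes.

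The replication-dependent core histone genes had changes on both sides of 0. HIST1H2BK, the most abundant, read 73.5, 69.0 and 74.5 FPKM in EV and 72.7, 71.7 and 74.1 in miR-424, and the groups overlapped. It shares 74.1% of its 50-base words with other genes and its listed position with HIST1H4I. HIST1H2BD read 12.2, 11.3 and 11.5 against 11.2, 9.86 and 14.2, and HIST2H2BE read 8.99, 9.45 and 8.33 against 9.41, 9.37 and 8.45. Neither separated the groups. Over the 10 tested H2B loci 6 log2 changes were positive and 4 negative, with a median of 0.01.

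Among the H2A genes HIST1H2AC read 22.6, 20.6 and 21.0 FPKM in EV and 24.97, 23.0 and 26.1 in miR-424. Every miR-424 library was higher, but the log2 change of 0.20 (SE 0.0601) had an adjusted p of 0.105 in limma with Benjamini-Hochberg. HIST3H2A read 6.58, 8.58 and 7.75 against 4.32, 5.71 and 8.27, and HIST2H2AC read 2.89, 3.21 and 3.16 against 2.57, 2.56 and 3.76. In both genes miR-424 replicate 3 was the highest of its group and the other miR-424 libraries lay below every EV library. HIST2H2AC shares 30.5% of its 50-base words with HIST2H2AA3, so its level is uncertain.

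The H3 and H4 genes were near the threshold. HIST1H3E read 1.29, 1.21 and 0.927 FPKM in EV and 1.44, 1.48 and 1.42 in miR-424, with a log2 change of 0.20 (limma with Benjamini-Hochberg adjusted p = 0.157). HIST1H3H read 1.49, 1.19 and 0.926 against 1.09, 1.33 and 1.47, and its groups overlapped. HIST2H4A read 2.61, 2.39 and 1.90 against 2.09, 2.66 and 2.995, and all its 50-base words occur in HIST2H4B. HIST1H4H read 2.07, 2.28 and 2.23 in EV, while the miR-424 libraries spread from 1.01 to 3.57. The EV coefficient of variation had a median of 9.13% over the tested replication-dependent loci and 2.06% over the tested variant loci, H1FX-AS1 included. The sets were not matched for level, and most of the replication-dependent loci had lower means than most of the variant loci.

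A further 2 loci were picked after their values were seen. HIST2H2BF at chr1:149754244-149783928 (hg19) read 1.13, 1.27 and 1.19 FPKM in EV and from 1.49 to 1.55 in miR-424, with a log2 change of 0.19 and an adjusted p of 0.0517 (limma with Benjamini-Hochberg), just above the threshold. HIST1H2BJ read 5.81, 6.12 and 6.92 against 4.75, 4.38 and 5.62, a change of -0.30 (adjusted p = 0.105). Groups without overlap were found at 9 histone loci lower and 4 higher, or 29% and 12.9% of the 31, beside 26.9% and 6.59% of all tested loci.

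**Figure D4:**
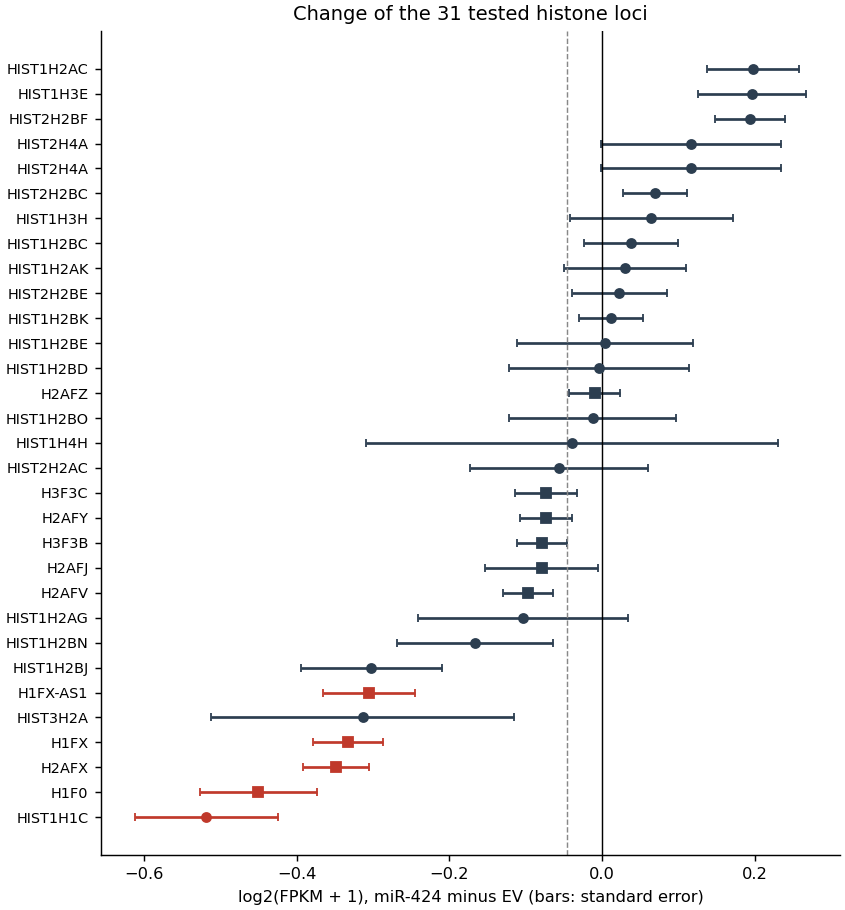
Log2 change of FPKM + 1 (horizontal, miR-424 minus EV, bars are standard errors) of the 31 tested histone loci, sorted; squares are variant and circles replication-dependent loci, red marks loci that fell, and the dashed line is the median of all tested loci. The 5 red loci run from -0.52 to -0.31, while the highest, HIST1H2AC, is at 0.20.

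The calls depended on the libraries and scaling. Leaving out any 1 EV library left 0 of the histone calls, with 111, 110 and 119 calls over all loci in place of 875, and leaving out miR-424 replicate 3 gave 13 lower and 2 higher histone loci, beside 22.2% and 14.9% of all tested loci. Without that library HIST1H1C, H1F0, H1FX and H2AFX had log2 changes of -0.42, -0.36, -0.32 and -0.33 and remained called. Median-of-ratios scaling moved the split over all loci from 144 higher and 731 lower to 344 and 436 and gave 1 higher and 4 lower histone loci. GC content moved with the change: loci of at least 65% GC had a median log2 change of -0.13 and those under 45% of -0.03. The libraries differed in this: the median deviation from the EV mean went from 0.05 under 45% GC to -0.13 at 65% and above in miR-424 replicate 1 and from 0.06 to -0.16 in replicate 2, but from -0.18 to -0.07 in replicate 3. The transcripts of H1FX and H2AFX have 68.6% and 66.4% GC. With the GC trend removed, a setting chosen after seeing the data, H1FX changed by -0.20, H2AFX by -0.23, H1F0 by -0.39 and HIST1H1C by -0.45, and all 4 passed the threshold.

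Genes that make, process and deposit histones were listed with the histones. Of 18 tested loci for stem-loop processing and decay 0 passed in limma, 2 were lower and 0 higher at an unadjusted p under 0.05, and the median log2 change was -0.04; over all tested loci 19.3% were lower and 4.29% higher at that p. SLBP, the stem-loop binding protein, read 46.1, 46.3 and 44.2 FPKM in EV and 42.9, 46.5 and 39.0 in miR-424, and NCBP2, a cap-binding subunit, 54.7, 54.2 and 54.7 against 59.2, 59.5 and 48.0. Both overlapped, with miR-424 replicate 3 lowest. Of 27 tested loci for histone chaperones and deposition 0 passed in limma, and the median was -0.07. At an unadjusted p under 0.05, 7 were lower and 0 higher, again beside 19.3% and 4.29% of all tested loci. The list holds CENPA, itself a histone that the symbol rule left out, with a log2 change of -0.29 (unadjusted p = 0.0342 in limma). NAP1L1, an H2A-H2B chaperone, read 185, 188 and 187 against 217, 220 and 170, and RBBP7, a histone-binding protein, 101, 99.1 and 99.1 against 91.8, 93.1 and 99.3. At both genes miR-424 replicate 3 lay away from the other 2, and without it 13 of the loci of these 2 lists were lower and 6 higher, beside 22.2% and 14.9% of all tested loci.

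S phase markers were read beside the histones, since replication-dependent histone genes are transcribed in that phase. Of 17 tested S phase markers 2 fell and 0 rose in limma, beside 6.32% and 1.24% of all tested loci. At an unadjusted p under 0.05, 10 were lower and 0 higher, beside 19.3% and 4.29%, and the median log2 change was -0.13. CCNE1, cyclin E1, which drives entry into S phase, read 10.5, 10.3 and 10.7 FPKM in EV and 7.34, 7.51 and 7.75 in miR-424, a change of -0.43 (limma with Benjamini-Hochberg adjusted p = 0.0040). MCM3, a subunit of the replicative helicase, read 69.8, 70.8 and 72.1 against 62.5, 63.7 and 63.4, a change of -0.16 (adjusted p = 0.0355). Neither gene overlapped between the groups, and the part of these changes in the histone values was not tested. Of RNAs that normally lack a poly(A) tail 6 of 30 loci were tested and 0 passed in limma, also 0 at an unadjusted p under 0.05 in either direction; SCARNA12 read from 8.91 to 11.3 FPKM and SCARNA27 from 0.678 to 3.67, with overlapping groups.

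Promoters were read for HIST1H1C, H1FX and H2AFX among the fallen genes; that of H1F0 was not analysed here. The 300 bases around the RefSeq start (GRCh38.p14) are given for HIST1H1C (chr6:26056421-26056720, minus strand) and H2AFX (chr11:119095416-119095715, minus strand), with motif matches on either strand in capitals. The motifs searched were the CCAAT box, the TATA box spelled TATAAA, and AAACACA, the box described in H1 promoters.
HIST1H1C: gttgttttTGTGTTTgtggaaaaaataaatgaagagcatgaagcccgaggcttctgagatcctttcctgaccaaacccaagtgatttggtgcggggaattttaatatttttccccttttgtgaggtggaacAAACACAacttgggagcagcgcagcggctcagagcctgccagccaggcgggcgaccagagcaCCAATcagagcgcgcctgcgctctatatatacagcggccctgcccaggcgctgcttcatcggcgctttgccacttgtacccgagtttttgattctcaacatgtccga
H2AFX: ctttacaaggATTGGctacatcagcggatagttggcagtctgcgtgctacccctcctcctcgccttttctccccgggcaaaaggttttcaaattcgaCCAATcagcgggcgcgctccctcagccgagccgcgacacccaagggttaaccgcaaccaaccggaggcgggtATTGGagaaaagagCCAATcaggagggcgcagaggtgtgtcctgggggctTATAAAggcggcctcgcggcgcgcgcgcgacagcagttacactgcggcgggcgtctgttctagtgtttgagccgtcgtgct
AAACACA was found in the promoters of 6 of 6 replication-dependent H1 genes, and in 5.76% of the 27305 promoters of the table. The HIST1H1C window holds 2 matches and the H1FX window 0. CCAAT was present in 84.7% of 59 replication-dependent promoters and 72.7% of 11 variant ones, against 35.7% of all, and TATAAA in 64.4% and 36.4%, against 12%. Only 3 of 12 H4 promoters held CCAAT, whereas all 12 H2A and 18 H2B promoters of the cluster class did. These promoters are not all separate sequences, since windows of neighbouring genes on opposite strands can overlap. Examples are HIST1H2AC (chr6:26123922-26124221) and HIST1H2BC (chr6:26123877-26124176), so a match can be counted for both genes. H2AFX, with 4 CCAAT matches and a TATAAA, fell, and HIST1H2BK, with 6 and 3, did not pass the test. The 3 TATAAA matches of HIST1H2BK include the stretch TTTATAAA, which was counted once on each strand.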

How the data were processed

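The 6 libraries, 3 EV and 3 miR-424, were deposited as 1 table of FPKM per locus; the submitters' processing notes name TopHat 1.4.1, Cufflinks 1.3.0, Cuffdiff and hg19, and the authors' FPKM values were used as deposited. No count test was possible because FPKM are not counts. The test took the 11574 of 24294 loci whose mean reached 1 FPKM, and they were tested as log2(FPKM + 1) with limma 3.58.1 in R 4.3.3 (trend, two-sided, Benjamini-Hochberg adjustment, threshold 0.05). The script was tested on simulated data. An exact permutation test of 3 against 3 cannot go below p = 0.1.

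The members and lists were chosen with earlier results of these data known. Genes were named if they passed the threshold or had the 3 highest means of a class; 3 loci on either side of 1 FPKM, and up to 4 called or else the 2 most abundant genes of each list, were added. Coordinates of loci are hg19 as in the table. Transcripts came from GENCODE 29 (79 of 81 symbols matched) and promoters from RefSeq GRCh38.p14 (70 matched); coordinates of the builds were not combined. Alternatives were another pseudocount, filters, scalings, leaving out each library and a replicate block, and removal of a GC trend (98.1% of tested loci had a GC value).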

Additional observations from a re-analysis of the deposited data

How the results depend on the processing

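Of 418 values of single histone loci under 14 alternatives, 373 stayed on the same side of the threshold with their direction where called, 23 lost the call, 22 gained one and 0 called values changed sign; 37 uncalled values had the other sign. The count of lower histone loci, 5 in the fit as reported, ran from 0 to 13 with single libraries left out, and the count of higher loci, 0 as reported, from 0 to 2. The counts of higher and lower loci among the processing and chaperone genes, both 0 as reported, ran from 0 to 6 and from 0 to 13. With 1 EV library left out, the adjusted p was 0.0509 to 0.0648 for H2AFX, 0.0593 to 0.0736 for H1FX, 0.0926 to 0.103 for H1F0, 0.0971 to 0.122 for HIST1H1C and 0.0954 to 0.144 for H1FX-AS1, and the log2 change of H2AFX was -0.37 to -0.34. One of the scalings, median-of-ratios, gave 1 higher histone locus, and quantile normalization gave 1. The replicate block gave 3 lower histone loci (H2AFX, H1FX and HIST1H1C) and 79 higher and 270 lower loci in all. Same-numbered libraries had correlations of their deviations of 0.0509, 0.152 and 0.127, and differently numbered ones from -0.194 to 0.0613. EV replicate 1 correlated best with miR-424 replicate 2 (0.0613). The replicate numbers are known only from the sample titles, so the block was kept as an alternative. Whether the numbers pair libraries was not tested. With the GC trend removed, chosen after seeing the data, 2 histone loci were higher, and 1 processing or chaperone locus was higher and 1 lower. With miR-424 replicate 3 also left out, 3 histone loci were higher and 9 lower, H1FX changed by -0.15 and H2AFX by -0.19, and 5 processing or chaperone loci were higher and 8 lower. Over all loci the counts were 687 higher and 838 lower with the GC trend removed, 1660 and 1727 with that library also left out, 315 and 449 with quantile normalization, and 1728 and 2574 without miR-424 replicate 3. H1FX-AS1 was not called without a filter on low values (adjusted p = 0.0532), with median-of-ratios scaling (0.0809) or quantile normalization (0.108), and it had no GC value. The causes were not tested. Read depth is not given, so counting error could not be set beside the spread between libraries.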
